A study of Mus musculus with 24 samples.

Results

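Chemokines and interleukins were followed across small cell lung cancer cell lines of the mouse in which p53 had been switched back on, as a view of what the restored cells may secrete. The 76 genes were taken by symbol from the 25239 genes of the expression table: the numbered Cxcl, Ccl and Il genes, Cx3cl1, and Lif, Csf1, Csf2, Csf3, Tnf and Tslp. The 6 lines came from single lung tumors of mice with floxed Rb1 and Rbl2 (both flox/flox), a reversible gene trap in both Trp53 alleles (XTR/XTR) and a Rosa26 FlpO-ERT2 allele, so that all 8 groups share deletion of Rb1 and Rbl2 by adenoviral Cre and a Trp53 gene switched off by its trap. Treatment with 4-hydroxytamoxifen (4-OHT) activates the Flp recombinase, which removes the trap and restores Trp53. Type D lines are those that die after restoration by the study's account, and Type V lines those that stay viable. The lines 4711-1, 4711-18 and 4716-11 are of Type D, and 4711-11, 4716-10 and 4716-14 of Type V. Each line gave 4 libraries at 72 h, treated with vehicle (Control), cyclosporin A (CsA, an inhibitor of cyclophilins that also blocks calcineurin; Control + CsA), 4-OHT (Restored) or both (Restored + CsA), so each of the 8 groups held 3 lines and 24 mRNA libraries were used in all. Lines stand for 1 tumor each and were cultured without a host, so no group shows how tumors in an animal signal to immune cells.

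Chemokines are small secreted proteins that draw leukocytes along a gradient through receptors of the CXCR, CCR and CX3CR families, and members of the CXC group that carry the Glu-Leu-Arg (ELR) motif draw neutrophils. Interleukins and colony-stimulating factors act on receptors of the cytokine families and control the growth, survival and activation of blood cells. Many of these genes are targets of NF-kB, and several are produced by senescent cells as part of the senescence-associated secretory phenotype.

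Levels are TPM values, which give a transcript's share of a library corrected for transcript length and can be compared between genes. Trp53 read 10.5 to 15.3 TPM in the 12 libraries without 4-OHT and 181 to 253 TPM in the 12 with it, as labelled. Of the neuroendocrine markers that define this cancer, Chga was listed at 0 in all 12 Type D and all 12 Type V libraries, while Ncam1 read 4.46 to 27.3 TPM over both types. Calca read at most 0.105 TPM and Syp at most 1.41 TPM over both types. Uchl1 and Insm1 had medians of 0.337 and 1.09 TPM in Type D, against 13.6 and 5.28 TPM in Type V. Leukocyte genes that would mark immune cells were near 0 (Ptprc at most 0.154 TPM and Cd3e listed at 0), but Cd68, which many other cells express, read 5.60 to 55.3 TPM. The 9 leukocyte markers, Cd68 included, summed to 9.24 to 11.2 TPM in Type D Control and 31.9 to 56.6 TPM in Type D Restored, and to 8.01 to 11.0 TPM in Type V Control and 17.1 to 32.3 TPM in Type V Restored. The 5 fibroblast markers summed to at most 1.93 TPM in Type D. In Type V they summed to 184.4 to 457.3 TPM in Control and 27.4 to 184.3 TPM in Restored. With CsA the sums were 177.1 to 520.9 TPM without and 17.9 to 122.1 TPM with restoration. The part of these markers in the results was not tested. From bulk libraries, fewer cells of a kind and less RNA per cell cannot be told apart. The unpaired p-values measure the spread between the 3 lines of a group, pooled over all 8 groups. Those with the cell line as a block, where each line is compared with itself, measure the spread left within lines.

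Most of these secreted factors were off or near their limit. Of the 76 genes, 16 were listed at 0 in every library, 26 more were above 0 but too low to test, with a highest value of 1.94 TPM for Il16, and 34 passed the filter of at least 1 TPM in 3 or more libraries. The ELR CXC chemokines all passed (5 of 5), as did 10 of 25 CC chemokines, 4 of 6 other CXC and CX3C chemokines, 4 of 6 colony-stimulating and beta common cytokines, 3 of 4 IL-1 family members, 3 of 5 gp130 ligands, 3 of 8 common gamma chain cytokines counted with Tslp, 1 of 5 IL-10 family members and 1 of 3 CXCR3 ligands. None of the IL-12 family (0 of 3, highest 1.15 TPM) or the IL-17 family (0 of 4, highest 0.944 TPM) passed, nor did Tnf. Il6, a common component of the senescent secretome, passed through 1 line: it read 4.60 to 13.2 TPM in the 4 libraries of 4716-10 and at most 0.396 TPM in the other 20.

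The lines differed widely in how much of this set they expressed. The summed level of the 76 genes was 528.5 to 697 TPM in 4711-11, where Cxcl12 and Csf1 led, and 5977 to 7512 TPM in 4716-10, where Cxcl5 and Cxcl1 led. In Type D it was 2228, 1858 and 3260.1 TPM in Control and 1279.7, 1900.2 and 1587 TPM in Restored. By group mean Cxcl1 stood first in all 4 Type D groups and Cxcl5 first in all 4 Type V groups, with Cxcl1 next, but in each of these 8 groups the ranges of the first and the next gene overlapped. In Type D Restored, Csf2 took the second place (355 ± 111 TPM, SD, n = 3), and its lowest line stood above the highest line of Lif, the next gene.

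**Figure D1:**
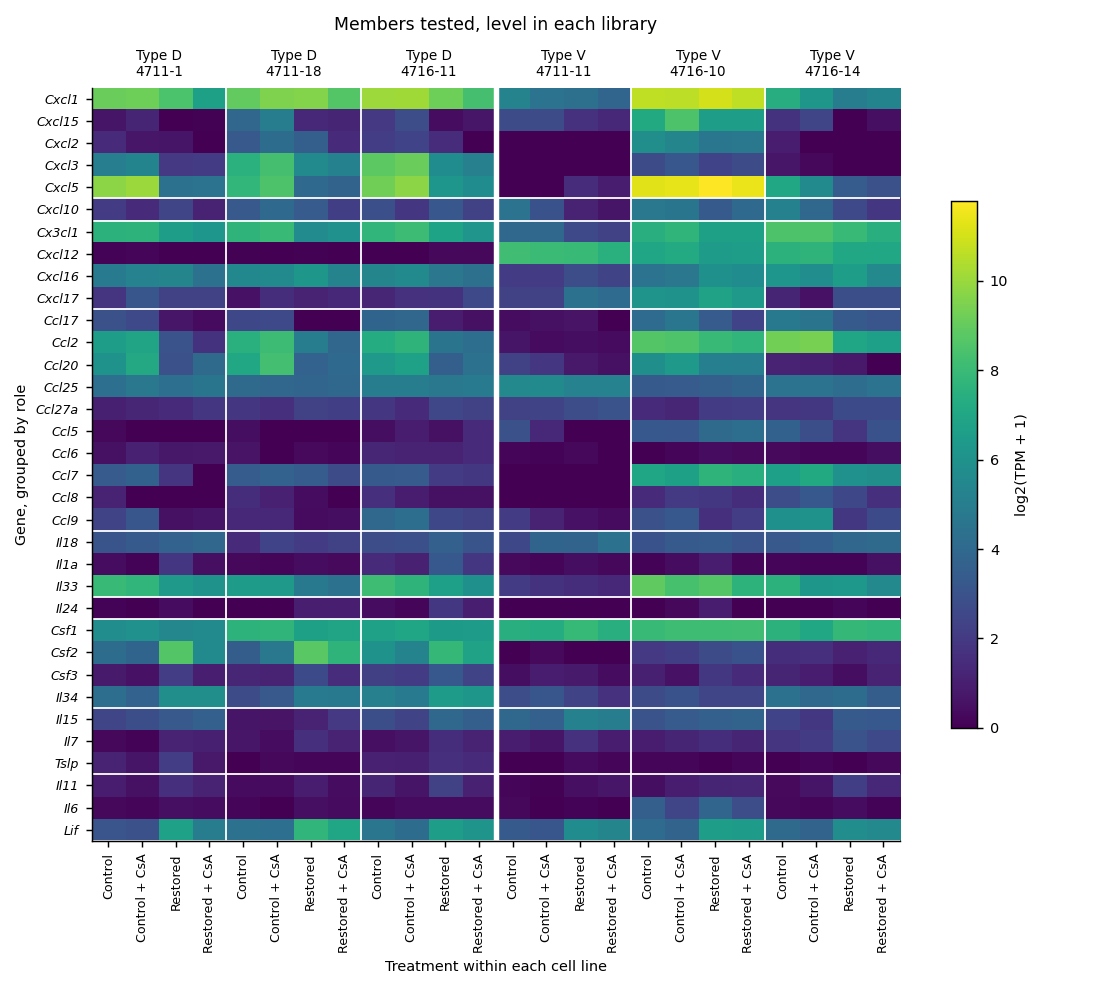
Level of each of the 34 tested genes (rows, grouped by role) in each of the 24 libraries (columns, grouped by cell line and ordered by treatment), coloured by log2(TPM + 1). Cxcl12 is bright in the 12 Type V columns and dark in the 12 Type D columns, and 4711-11 is dark for Cxcl5, Cxcl2, Ccl2 and Ccl7.

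The start-site windows of 4 genes that carry the main pattern are shown because Csf2 and Lif were the genes that rose in Type D and Cxcl3 and Ccl20 were among those that went down in every Type D line. They are RefSeq windows on GRCm38.p6, 250 bases before to 50 after the start on the gene's strand, and 22 of the 34 tested genes had one. Capitals mark matches on either strand to the consensus sites named kB (the NF-kB site), AP-1 (TGANTCA) and the p53 half-site.
Csf2, chr11:54249850-54250149, minus strand: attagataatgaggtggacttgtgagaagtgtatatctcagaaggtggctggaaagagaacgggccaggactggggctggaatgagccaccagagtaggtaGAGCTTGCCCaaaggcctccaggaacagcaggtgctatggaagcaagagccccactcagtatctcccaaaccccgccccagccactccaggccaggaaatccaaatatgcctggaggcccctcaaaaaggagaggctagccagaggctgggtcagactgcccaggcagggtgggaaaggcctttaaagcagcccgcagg
Lif, chr11:4257318-4257617, plus strand: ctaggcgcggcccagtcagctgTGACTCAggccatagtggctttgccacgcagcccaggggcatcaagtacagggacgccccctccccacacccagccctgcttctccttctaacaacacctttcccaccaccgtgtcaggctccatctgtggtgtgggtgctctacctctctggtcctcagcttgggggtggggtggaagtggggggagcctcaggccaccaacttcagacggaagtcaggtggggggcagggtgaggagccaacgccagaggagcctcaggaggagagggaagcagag
Cxcl3, chr5:90785851-90786150, plus strand: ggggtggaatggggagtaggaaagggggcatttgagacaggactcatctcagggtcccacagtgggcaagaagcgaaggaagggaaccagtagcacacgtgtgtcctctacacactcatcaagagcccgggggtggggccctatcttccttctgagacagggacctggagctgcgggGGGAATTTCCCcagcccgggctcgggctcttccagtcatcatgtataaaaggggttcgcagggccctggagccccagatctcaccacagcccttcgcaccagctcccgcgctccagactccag
Ccl20, chr1:83116516-83116815, plus strand: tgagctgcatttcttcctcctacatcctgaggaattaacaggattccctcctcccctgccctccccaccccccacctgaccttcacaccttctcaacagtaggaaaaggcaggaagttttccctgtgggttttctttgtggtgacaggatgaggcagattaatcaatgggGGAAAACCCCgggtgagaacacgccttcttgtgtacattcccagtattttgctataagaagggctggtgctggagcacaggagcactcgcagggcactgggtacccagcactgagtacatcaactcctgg

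In these windows the capitals in Csf2 are a p53 half-site, those in Lif an AP-1 site, and those in Cxcl3 and Ccl20 a kB site, 73 and 80 bases before the start. A kB match was present in 9 of the 27 windows of tested genes (several genes have more than 1 window), namely those of Ccl20, Ccl27a, Ccl9, Csf1, Cxcl1, Cxcl10, Cxcl2, Cxcl3 and Il6, and in 4.51% of all 32851 windows. AP-1 matched in 7 of 27 against 7.81% of all, the p53 half-site in 3 of 27 (Ccl6, Csf2 and Il6) against 8.36%, and the NFAT core GGAAA, which can lie inside a kB site, in 21 of 27 against 61.3%. Cxcl5, Cxcl3, Cxcl15, Cxcl1 and Cxcl2 lie in this order on chromosome 5, and Csf2 and Il3 are neighbours among these genes on chromosome 11.

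Restoration in Type D raised a pair of cytokines, Csf2 and Lif, by 3.54 to 43.7 times in single lines. A further 10 genes, 9 of them chemokines, were lower in 3 of 3 lines. They passed the test when each line was compared with itself but not in the unpaired fit of all 8 groups. Of them, Ccl17, Ccl2, Ccl20, Ccl8 and Cxcl5 also passed unpaired when only the compared groups were fitted. Differences are between group means of log2(TPM + 1), which understates the change of genes with low values, and a gene was called at an adjusted p under 0.05 (limma, Benjamini-Hochberg over 14104 genes) with a change of at least 1. Here 2 of the 34 tested genes rose and 0 fell, where 4.49% of all tested genes rose and 2.44% fell. An unadjusted p under 0.05 was found for 9 of the 34 and for 3563 of all 14104 tested genes. With the cell line as a block, so that each line is compared with itself, 5 rose (Csf2, Lif, Csf3, Il34 and Il1a) and 10 fell (Cxcl5, Cxcl3, Cxcl15, Ccl2, Ccl8, Ccl9, Ccl17, Ccl20, Cx3cl1 and Il33), where 7.05% of all tested genes rose and 4.16% fell. The median change of the 34 was -0.01 and that of all tested genes 0.08. Without 4711-18 the unpaired count was 1, and without 4711-11, a Type V line that enters the estimate of the spread, it was 5.

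Csf2 encodes GM-CSF, a growth and activation factor of granulocytes and macrophages. It read 17.3, 10.0 and 64.6 TPM in Control and 398, 439 and 229 TPM in Restored, in the order 4711-1, 4711-18 and 4716-11. All 3 restored lines stood above all 3 controls, by 23.0, 43.7 and 3.54 times line by line, and 4716-11 began highest and ended lowest. The difference was 3.86 ± 0.84 (log2, SE; adjusted p = 0.00435 and, with the line block, 2.76e-05; n = 3 lines, limma). Without 4711-1 it was no longer called, and neither was it without 4711-18 or with a pseudocount of 0.1 in place of 1.

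Lif, a cytokine of the IL-6 family that signals through gp130 and the LIF receptor, read 7.77, 19.9 and 23.5 TPM in Type D Control and 107, 214 and 96.1 TPM in Restored. Each line rose, by 13.8, 10.8 and 4.10 times, and the groups did not overlap. The difference was 2.99 ± 0.51 (log2, SE; adjusted p = 0.000498, limma). The other gp130 ligands tested were low: Il11 read 0.872, 0.287 and 1.34 TPM in Control and 1.99, 0.876 and 3.79 TPM in Restored, a difference of 0.75 that stayed under the fold limit (line-blocked adjusted p = 0.0218), and Il6 read at most 0.396 TPM in Type D.

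Among the other colony-stimulating factors, Csf3 (G-CSF, which drives neutrophil production) read 0.803, 1.41 and 3.68 TPM in Control and 3.42, 5.28 and 8.37 TPM in Restored. Every line went up but the groups overlapped, and the change of 1.23 was called only with the line block (adjusted p = 0.106 without and 0.00198 with it). Il34, an alternative ligand of the CSF-1 receptor, read 18.3, 5.79 and 34.5 TPM in Control and 55.5, 27.2 and 86.6 TPM in Restored. Its lines went up by 3.03, 4.70 and 2.51 times, again with overlapping groups (1.64; adjusted p = 0.139 without and 3.04e-05 with the block). Csf1, the main ligand of that receptor, read 54.9, 198 and 107 TPM in Control and 43.3, 102 and 85.0 TPM in Restored, lower in 3 of 3 lines but by less than the fold limit (-0.54; line-blocked adjusted p = 0.00801).

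**Figure D2:**
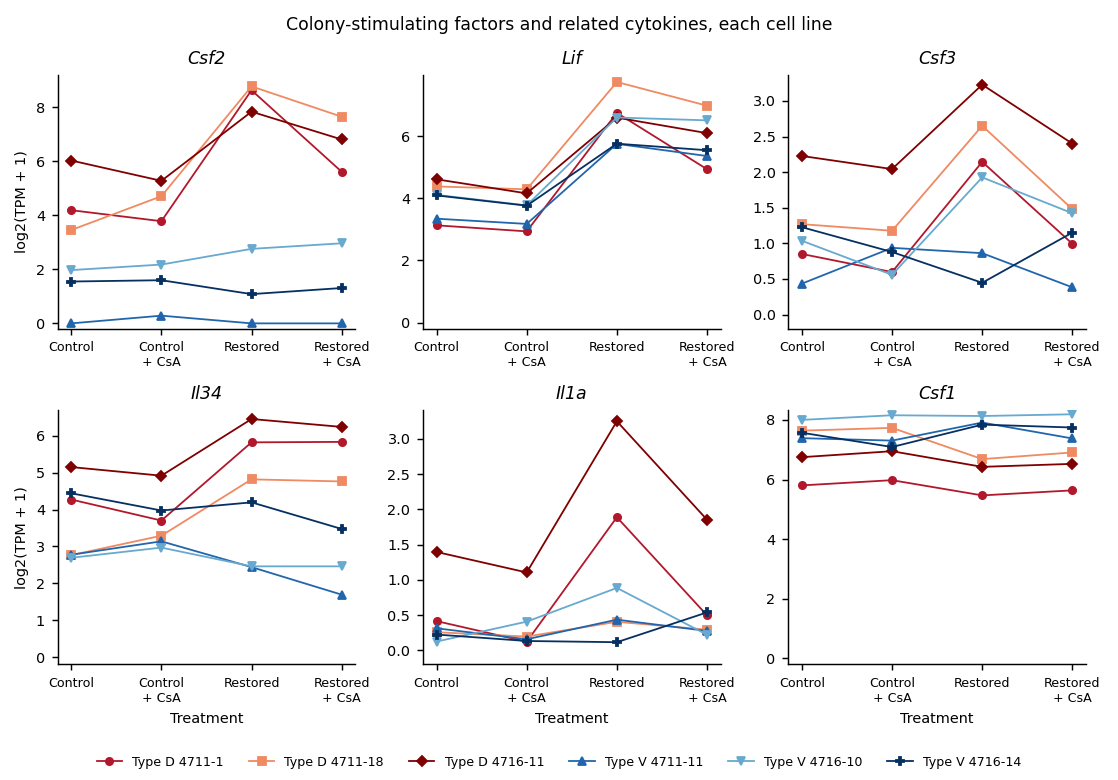
Level of 6 cytokine genes, as log2(TPM + 1), in each of the 6 cell lines (1 coloured line each, red shades for Type D and blue shades for Type V) under the 4 treatments. Csf2 stands at 229 to 439 TPM in the Type D Restored libraries and at 0 to 5.78 TPM in those of Type V, while Lif goes up in all 6 lines.

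The ELR CXC chemokines are neutrophil attractants, most of which bind CXCR2. Cxcl5 read 860.2, 223 and 609 TPM in Type D Control and 20.7, 15.6 and 71.4 TPM in Restored. All 3 restored values lay below all 3 controls, and the lines were lower by 41.6, 14.3 and 8.53 times, but the unpaired difference of -4.05 ± 3.04 was not called (adjusted p = 0.46, and 0.000448 with the line block, limma). Cxcl3 read 32.3, 183 and 456 TPM in Control and 2.94, 49.8 and 52.1 TPM in Restored, lower by 11.0, 3.68 and 8.76 times with overlapping groups (-2.68; adjusted p = 0.223 without and 3.58e-07 with the block). Cxcl15 read 0.565, 14.1 and 2.86 TPM in Control and 0, 1.5 and 0.315 TPM in Restored (line-blocked adjusted p = 0.00447). Cxcl1, the most abundant by group mean in Type D, did not share this: it read 543, 491 and 1081 TPM in Control and 350.3, 790.1 and 585 TPM in Restored, lower in 2 lines and higher in 4711-18 (-0.28, line-blocked 95% interval -1.15 to 0.60). Cxcl2 changed from 1.62, 8.87 and 3.47 to 0.614, 10.8 and 1.86 TPM, also with 4711-18 higher (line-blocked adjusted p = 0.378).

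Among the CC chemokines, Ccl20, the ligand of CCR6, read 64.9, 134 and 80.6 TPM in Type D Control and 6.56, 11.9 and 10.8 TPM in Restored. The groups did not overlap, and the lines were lower by 9.89, 11.2 and 7.47 times (-3.10; adjusted p = 0.186 without and 4.78e-07 with the line block). Ccl2, which draws monocytes through CCR2, read 94.4, 180.4 and 158 TPM in Control and 7.02, 30.5 and 21.9 TPM in Restored, also without overlap (-2.96; adjusted p = 0.518 without and 5.83e-05 with the block). Ccl17, a ligand of CCR4, read 6.61, 4.87 and 12.9 TPM in Control and 0.649, 0 and 0.872 TPM in Restored, without overlap. Ccl7, next to Ccl2 on chromosome 11, read 9.45, 9.86 and 9.19 TPM in Control and 2.5, 9.80 and 3.08 TPM in Restored; 4711-18 hardly moved, and the change was not called in either fit. Ccl8 (1.29 to 2.11 TPM in Control, at most 0.439 TPM in Restored) and Ccl9 (1.47 to 14.2 and 0.265 to 4.97 TPM) were lower in every line and called with the block (adjusted p = 0.00176 and 0.0375). Ccl25 moved little, from 19.0, 15.9 and 30.1 to 19.1, 13.3 and 25.7 TPM, and Ccl5, Ccl6 and Ccl27a, at most 4.66 TPM in Type D, were not called.

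Cx3cl1, the membrane-bound chemokine that binds CX3CR1, read 189.9, 203 and 219 TPM in Type D Control and 94.6, 51.5 and 115 TPM in Restored. The groups did not overlap and the lines were lower by 2.01, 3.95 and 1.90 times (-1.29; adjusted p = 0.652 without and 0.000101 with the line block). Cxcl16, the CXCR6 ligand, went from 28.1, 44.0 and 39.8 to 40.5, 75.2 and 24.3 TPM with no common direction, Cxcl17 stayed between 0.506 and 3.95 TPM in these 6 libraries, and the CXCR3 ligand Cxcl10 read 3.18, 8.73 and 6.35 TPM in Control and 4.54, 9.59 and 8.34 TPM in Restored without a call.

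The IL-1 family split in direction. Il33, an alarmin released from damaged cells, read 249, 88.2 and 277 TPM in Control and 82.7, 26.0 and 98.9 TPM in Restored, lower by 3.02, 3.40 and 2.80 times with overlapping groups (-1.60; adjusted p = 0.692 without and 4.94e-06 with the line block). Il1a, another alarmin, read 0.333, 0.195 and 1.63 TPM in Control and 2.70, 0.324 and 8.50 TPM in Restored, so that 4711-18 hardly moved (1.16; adjusted p = 0.177 without and 0.00373 with the block). Il18 was higher in every line, from 7.35, 1.63 and 5.81 to 12.1, 3.33 and 11.2 TPM, by less than the fold limit. The same held for the common gamma chain cytokines Il7 (0.183 to 0.641 TPM in Control and 1.20 to 2.0 TPM in Restored) and Il15 (0.612 to 6.16 and 1.22 to 14.4 TPM), which support lymphocytes, and for the IL-10 family gene Il24 (0 to 0.321 and 0.299 to 2.81 TPM), with line-blocked adjusted p of 0.000322, 0.0120 and 0.00621. Tslp, at most 3.40 TPM, was not called in either fit.

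**Figure D3:**
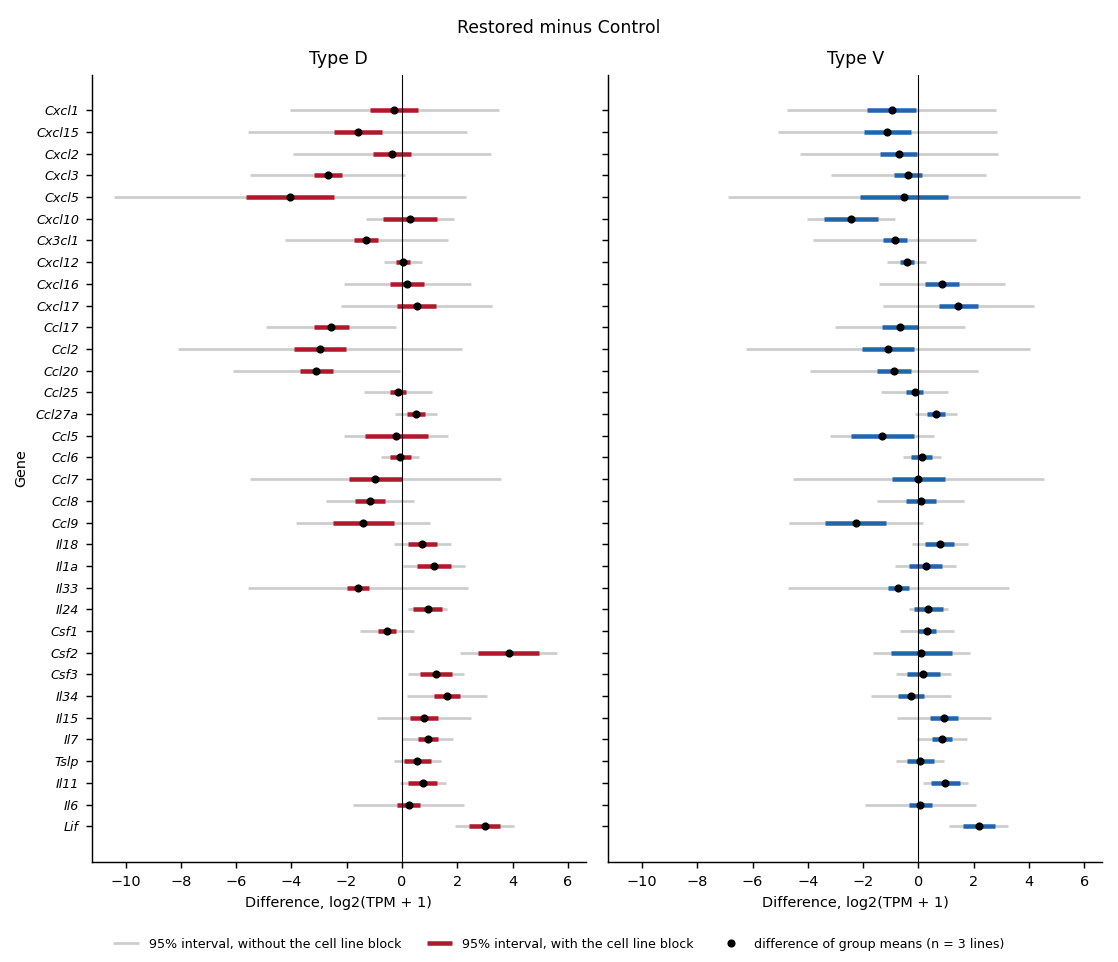
Difference between Restored and Control group means on the log2(TPM + 1) scale for the 34 tested genes, in Type D (left, red) and Type V (right, blue); points are differences over 3 lines, pale bars 95% intervals of the limma fit without the cell line block and coloured bars those with it. Csf2 and Lif lie to the right of 0 in Type D under both fits, Cxcl5 lies furthest to the left at -4.05, and in Type V only Lif and Cxcl10 were called without the block.

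In Type V, restoration raised Lif and lowered Cxcl10. These were the 1 gene that rose and the 1 that fell of 34 tested, where 3.39% of all tested genes rose and 1.9% fell. An unadjusted p under 0.05 was found for 3 of the 34 and for 3117 of all 14104 tested genes. With the line block 2 rose (Lif and Cxcl17) and 3 fell (Cxcl10, Cxcl15 and Ccl9), where 5.74% of all tested genes rose and 2.93% fell. The median change of the 34 was 0.03 and that of all tested genes 0.05. In the same libraries the summed fibroblast markers were lower, and the summed leukocyte markers higher, in Restored than in Control without overlap. Of the leukocyte markers, Cd68 read 6.86 to 31.3 TPM over the 12 Type V libraries and each other one at most 1.48 TPM (Csf1r). The part of either set of markers in these changes was not tested. The unpaired count was 0 without 4711-11 and 1 without 4711-1, 4716-11, 4716-10 or 4716-14.

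Lif read 9.17, 16.3 and 16.1 TPM in Type V Control and 53.1, 96.4 and 53.3 TPM in Restored, in the order 4711-11, 4716-10 and 4716-14. Each line rose, by 5.79, 5.91 and 3.31 times, without overlap (2.19 ± 0.51, log2, SE; adjusted p = 0.00844, limma), and the call was lost without 4711-11 or without 4716-10. Cxcl10, an interferon-inducible chemokine that draws T cells, read 21.8, 25.1 and 35.6 TPM in Control and 1.26, 9.12 and 5.09 TPM in Restored. All restored values lay below all controls, by 17.2, 2.75 and 6.99 times (-2.43 ± 0.76; adjusted p = 0.0496, and 0.000626 with the line block, limma), close to the limit: the call was lost in 7 of 13 alternatives, with adjusted p over all of them from 0.000626 to 0.241. The lines left out when it was lost were 4711-1, 4716-11, 4711-11 and 4716-14, each in turn.

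Cxcl17, a chemokine of mucosal epithelia, read 3.99, 68.3 and 1.31 TPM in Type V Control and 19.8, 109.8 and 6.08 TPM in Restored, higher in every line (1.45; adjusted p = 0.601 without and 0.00240 with the line block). Ccl9 read 3.23, 6.68 and 59.1 TPM in Control and 0.508, 2.14 and 2.73 TPM in Restored, lower in every line (-2.26; adjusted p = 0.268 without and 0.00256 with the block). Cxcl15 went from 5.69, 142 and 2.33 to 2.16, 97.0 and 0 TPM. Csf2 remained low, at 0, 2.93 and 1.93 TPM in Control and 0, 5.78 and 1.12 TPM in Restored.

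Of the 9 chemokines that fell in Type D with the line block, 5 (Ccl2, Ccl20, Ccl9, Cx3cl1 and Cxcl15) were also lower in all 3 Type V lines, and 4 (Ccl17, Ccl8, Cxcl3 and Cxcl5) were not. The same share over all genes that fell in Type D was not computed. Ccl17 read 0.311, 16.7 and 26.2 TPM in Type V Control and 0.543, 9.31 and 8.99 TPM in Restored. It was thus lower in 4716-10 and 4716-14 and near 0 throughout in 4711-11. Ccl20 read 3.85, 57.8 and 1.27 TPM in Type V Control and 0.763, 33.0 and 0.722 TPM in Restored (-0.88, under the fold limit; line-blocked adjusted p = 0.0201). Cxcl3 was listed at 0 in both groups in 4711-11 and was lower in the other lines, from 5.78 to 4.22 and from 0.652 to 0 TPM. Cxcl5 read 0, 2474 and 131 TPM in Control and 1.85, 3560 and 9.83 TPM in Restored, so it was higher in 2 lines and 13.3 times lower in 4716-14. Ccl2 read 0.594, 400.2 and 629 TPM in Control and 0.345, 246 and 121 TPM in Restored, lower in every line but all but off in 4711-11 (line-blocked adjusted p = 0.0547). Cx3cl1 read 14.2, 172 and 362 TPM in Control and 5.03, 104 and 251 TPM in Restored, and Il33 3.28, 489 and 189 TPM in Control and 1.89, 392 and 76.3 TPM in Restored. Both were lower in every line by less than the fold limit (line-blocked adjusted p = 0.00319 and 0.00470). Il15, Il7 and Il18 were each higher in 3 of 3 Type V lines by 0.78 to 0.93 (log2), under the fold limit, and Il15 was highest in 4711-11, at 14.2 TPM in Control and 35.2 TPM in Restored.

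**Figure D4:**
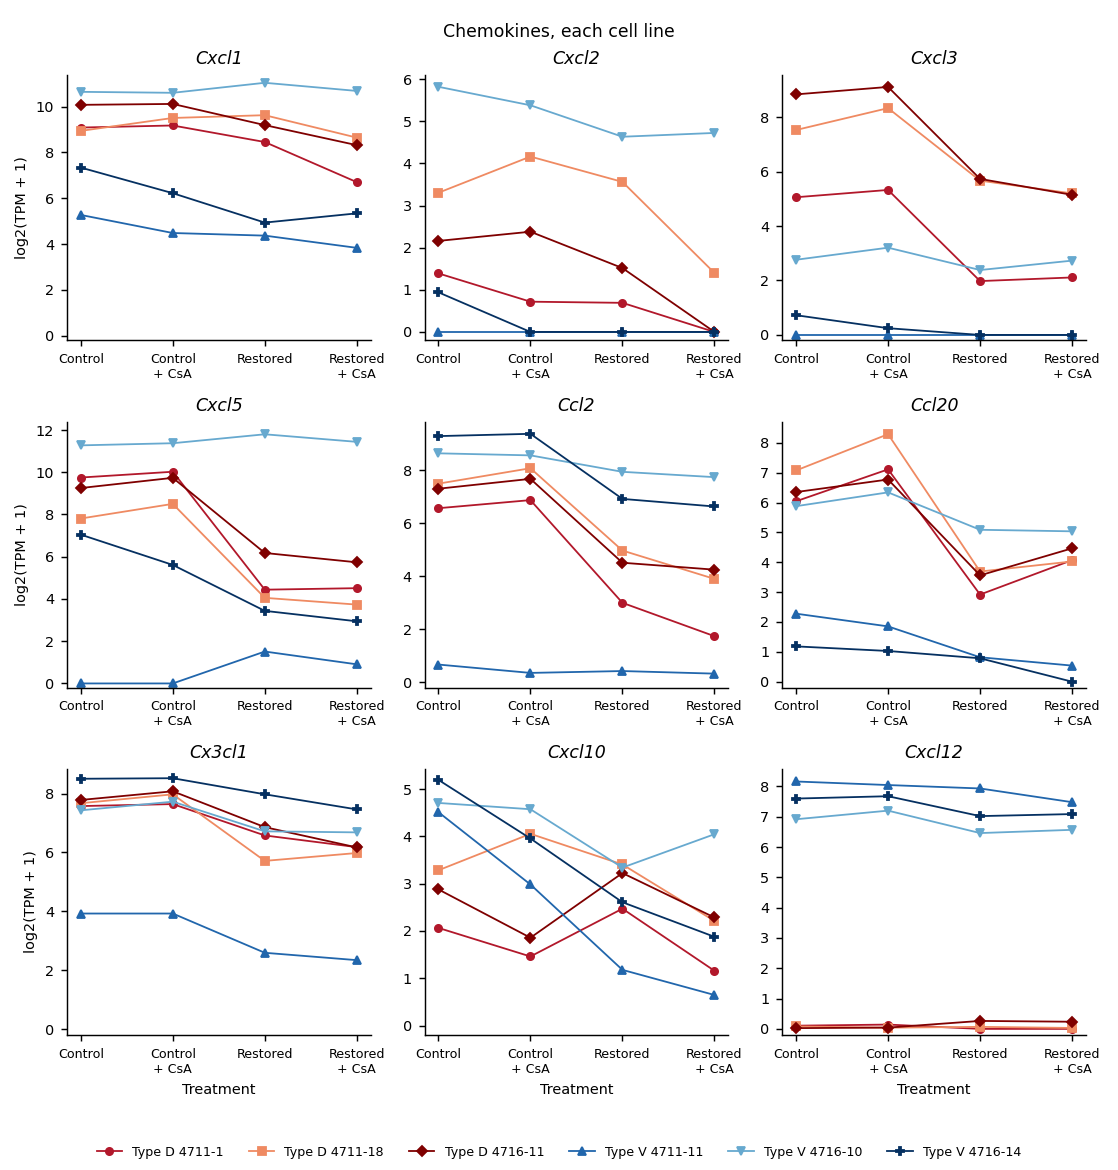
Level of 9 chemokine genes, as log2(TPM + 1), in each of the 6 cell lines under the 4 treatments, coloured as in the plot of cytokine genes. Ccl20 and Cxcl3 drop between the control and restored columns in all 3 Type D lines, Cxcl10 is lower after restoration in all 3 Type V lines, and Cxcl12 lies at or near 0 TPM in Type D.

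The difference between the restoration responses of the 2 types was tested directly. Without the line block 0 of 34 genes were called by limma, where 0.0284% of all tested genes were. An unadjusted p under 0.05 was found for 2 of the 34 and for 540 of all 14104 tested genes. With the block 6 were called, where 2.44% of all tested genes were: Csf2 (3.75), Il34 (1.91) and Cxcl10 (2.72) had the more positive change in Type D, and Ccl17 (-1.89), Ccl20 (-2.22) and Cxcl3 (-2.31) a more negative one. Their line-blocked adjusted p ranged from 0.00193 for Cxcl3 to 0.0256 for Cxcl10. For Cxcl5 and Ccl2 the difference did not pass in either fit (line-blocked adjusted p = 0.0646 and 0.0895), nor did it for Lif.

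Of the 34 genes, Cxcl12, the CXCR4 ligand that stromal cells make, differed most between Type D and Type V lines in Control and in Restored + CsA, and Csf2 did in Restored. It read 286, 120.0 and 193 TPM in Type V Control and at most 0.200 TPM in the 12 Type D libraries, a difference of -7.49 ± 0.33 in Control (log2, SE; adjusted p = 1.74e-11, limma) that was called in Restored (-7.03) and Restored + CsA (-6.96) too, and in every alternative run. Of the 5 fibroblast markers, Col1a1 read 0.698 to 401.5 TPM, Col1a2 6.36 to 194 TPM and Dcn 3.52 to 71.9 TPM in the 12 Type V libraries, against at most 1.55, 0.0673 and 0.106 TPM in Type D. Pdgfra was low in both types (medians of 0.127 TPM in Type V and 0.162 TPM in Type D) and Thy1 was listed at 0 in every Type V library. The part of these markers was not tested. In Control 4 of 34 genes were called between the types, where 8.83% of all tested genes were: besides Cxcl12, Ccl5 was lower in Type D (0.207 to 0.363 TPM against 6.62 to 11.6 TPM) and Csf2 and Cxcl3 were higher. Csf2 was 3.39 higher in Control (adjusted p = 0.0109) and 7.14 higher in Restored (adjusted p = 1.17e-05). Cxcl3 stood 5.98 higher in Control (adjusted p = 0.00556), as Type V read 0, 5.78 and 0.652 TPM.

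In Restored 5 of 34 genes were called between the types, where 9.44% of all tested genes were: Csf2, Csf3 and Il34 were higher in Type D, and Csf1 and Cxcl12 lower. Csf1 read 240, 279 and 228 TPM in Type V Restored against 43.3 to 102 TPM in Type D (-1.77; adjusted p = 0.0163), and Il34 read 4.42, 4.50 and 17.3 TPM against 27.2 to 86.6 TPM (2.67; adjusted p = 0.0136), so the 2 ligands of the CSF-1 receptor stood in opposite order with no overlap in either. Csf3 was higher in Type D by 1.60 (adjusted p = 0.0303), and this call, like that of Ccl5 in Control, was lost in 6 alternatives. In Restored + CsA 3 of 34 were called, where 7.82% of all tested genes were: Csf2 (5.27) and Il34 (3.07) higher and Cxcl12 lower in Type D. The count was 2 in Control without 4716-11 and 7 without 4716-10, 2 in Restored without 4716-11 and 3 without 4716-14, and 7 in Restored + CsA without 4711-11 and 6 without 4716-10. Single lines decided several of these calls: Csf2 and Ccl5 in Control were lost without 4716-11, Ccl5 also without 4711-1, 4711-18 or 4716-14, Csf1 without 4716-11, 4711-11 or 4716-14, Csf3 without 4711-18, 4716-11, 4711-11 or 4716-14, and Il34 in Restored without 4711-1, 4716-11, 4711-11 or 4716-10 and in Restored + CsA without 4711-1.

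CsA alone called 0 of 34 genes in either type by limma, with 0 at an unadjusted p under 0.05 in each, where 0% of all tested genes were called in Type D and 0% in Type V. With the line block it again called 0, with 3 at an unadjusted p under 0.05 in each type (Ccl20, Ccl8 and Cxcl17 in Type D, and Il18, Il33 and Il6 in Type V), where 0.0142% of all tested genes were called in Type D and 0% in Type V. Ccl20 read 137, 312 and 108 TPM in Type D Control + CsA, higher than Control in 3 of 3 lines.

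Added to restored cells, CsA also called 0 of 34 in either type without or with the line block. All tested genes were called at 0.0142% in Type D and 0% in Type V without the block, and at 0.128% and 0% with it. At an unadjusted p under 0.05 there was 1 gene in Type D (Csf3) and 0 in Type V without the block, and 12 and 4 with it. Of all 14104 tested genes, 229 and 100 passed this limit without the block, and 1771 and 633 with it. In Type D 25 of the 34 differences were negative, with a median of -0.26 against 0.004 for all tested genes, and in Type V 24 were, with a median of -0.17 against -0.02.

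The values of Csf2, Lif and Csf3 nonetheless lay lower with CsA than without it in each restored Type D line. Csf2 read 48.1, 201 and 112 TPM in Restored + CsA against 398, 439 and 229 TPM in Restored, lower by 8.27, 2.18 and 2.05 times (-1.73; adjusted p = 1 without and 0.166 with the line block, 95% interval with it -2.84 to -0.61). Lif read 29.7, 126 and 67.7 TPM, lower by 3.60, 1.70 and 1.42 times (-1.03; line-blocked adjusted p = 0.117). Csf3 read 0.991, 1.79 and 4.28 TPM, also lower in 3 of 3 lines (-1.05; line-blocked adjusted p = 0.118). The smallest line-blocked adjusted p was that of Cxcl2, 0.0593, which read 0, 1.64 and 0 TPM in Restored + CsA against 0.614, 10.8 and 1.86 TPM in Restored. Cxcl1 read 103, 400.3 and 318 TPM, lower in 3 of 3 lines (-1.20; line-blocked adjusted p = 0.216). In contrast Ccl20 read 15.8, 15.3 and 21.1 TPM, higher than in Restored in 3 of 3 lines (0.80; line-blocked adjusted p = 0.234), and Il34 read 56.0, 26.1 and 74.5 TPM, nearly its level without CsA.

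**Figure D5:**
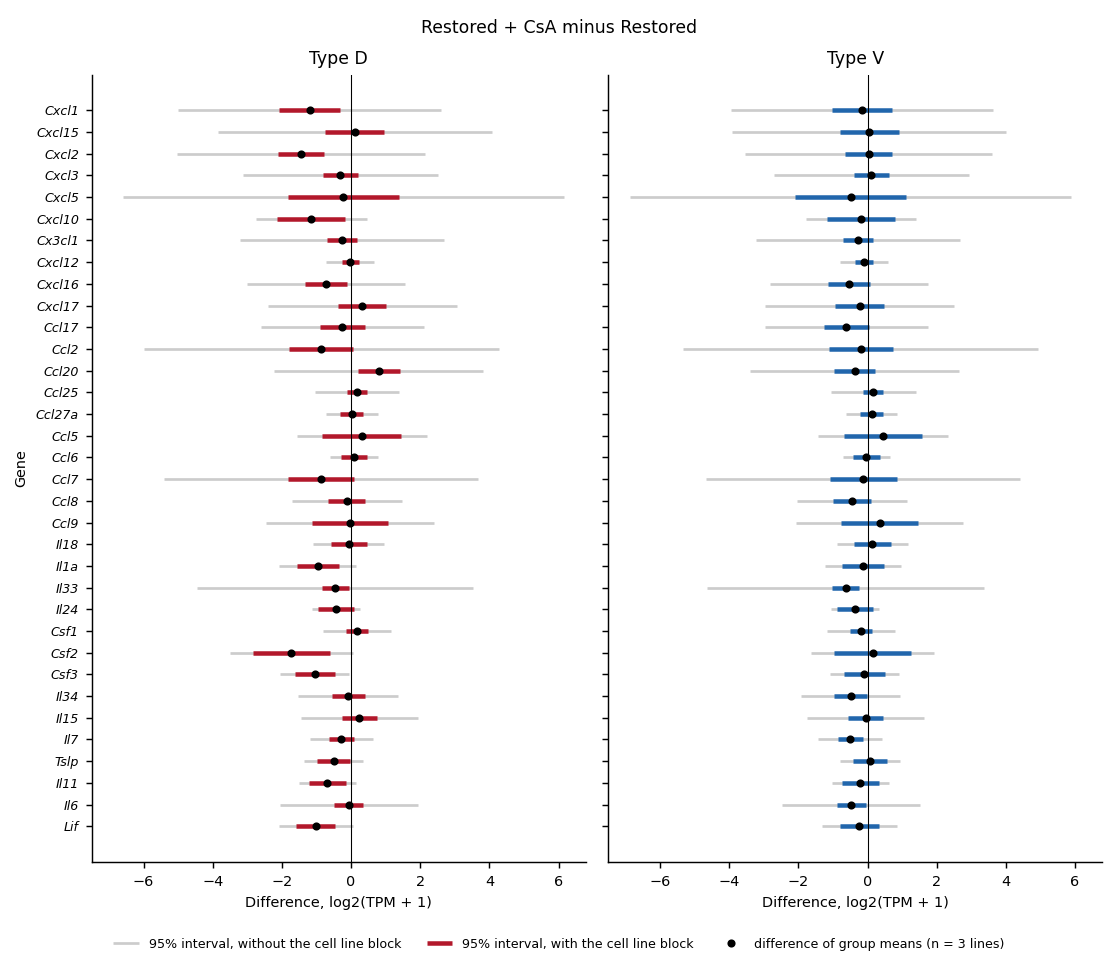
Difference between Restored + CsA and Restored group means on the log2(TPM + 1) scale for the 34 tested genes, in Type D (left) and Type V (right), with points over 3 lines, pale bars for 95% intervals without the cell line block and coloured bars for those with it. Csf2 at -1.73 and Cxcl2 at -1.46 lie furthest to the left in Type D, and no gene was called in either type.

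A pair of comparisons, chosen after the values had been seen, asked whether the effect of CsA depended on restoration or on the type. The change from CsA in restored Type D cells minus that in their controls called 0 of 34 genes by limma, with 0 at an unadjusted p under 0.05, where 0% of all tested genes were called, and with the block 0 with 6 at an unadjusted p under 0.05, where again 0% were called. Cxcl2 (-1.59), Csf2 (-1.76) and Cxcl1 (-1.43) were among these 6. Of all 14104 tested genes, 56 had an unadjusted p under 0.05 in this comparison without the block and 571 with it. The effect of CsA on restored cells in Type D minus that in Type V called 0 (0 at an unadjusted p under 0.05), where 0% of all tested genes were called, and 0 with the block (4 at an unadjusted p under 0.05), where 0.00709% were. Here the unadjusted limit was passed by 102 of all 14104 tested genes without the block and by 798 with it.

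Restoration in the presence of CsA raised Lif in both types. In Type D 1 of 34 rose (Lif, 2.21, limma adjusted p = 0.00848) and 0 fell, where 3.53% of all tested genes rose and 1.88% fell. An unadjusted p under 0.05 was found for 6 of the 34 and for 3100 of all 14104 tested genes. With the line block 4 rose (Lif, Csf2, Il34 and Il15) and 12 fell (Cxcl1, Cxcl2, Cxcl3, Cxcl5, Cxcl15, Ccl2, Ccl7, Ccl9, Ccl17, Ccl20, Cx3cl1 and Il33), where 5.91% of all tested genes rose and 3.78% fell. Cxcl1 read 578, 726 and 1111 TPM in Control + CsA and 103, 400.3 and 318 TPM in Restored + CsA, without overlap (-1.71; line-blocked adjusted p = 0.00360). Csf2 read 12.8, 25.2 and 37.9 TPM in Control + CsA, so under CsA all 3 restored lines still stood above all 3 controls (2.10; adjusted p = 0.140 without and 0.00456 with the block). Of the unpaired counts, that in Type D was 0 without 4711-18 or 4716-11, 5 without 4711-11 and 2 without 4716-10.

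In Type V with CsA 1 of 34 rose (Lif, 2.24, limma adjusted p = 0.00826) and 0 fell, where 2.84% of all tested genes rose and 1.77% fell. An unadjusted p under 0.05 was found for 2 of the 34 and for 2747 of all 14104 tested genes. With the line block 3 rose (Lif, Cxcl17 and Il15) and 7 fell (Cxcl10, Cxcl15, Ccl2, Ccl9, Ccl17, Ccl20 and Cx3cl1), where 5.03% of all tested genes rose and 2.94% fell. The unpaired count was 0 without 4716-10 or 4716-14. Lif was lost without 4711-18 or 4716-11 in Type D, and without any 1 of the 3 lines in Type V.

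Receptors, regulators and other secreted factors were read from lists. Of all tested genes, 4.49% rose and 2.44% fell in Type D, and 3.39% rose and 1.9% fell in Type V. With the line block these shares were 7.05% and 4.16% in Type D and 5.74% and 2.93% in Type V. Of 23 chemokine receptors 3 were tested (Cxcr4, Ackr3 and Ccr7) and 0 were called by restoration in either type by either fit. Of 45 cytokine receptors 31 were tested: 1 fell in Type D (Il5ra, -1.16; adjusted p = 0.0301) and 0 were called in Type V (with the block 2 rose and 3 fell in Type D, and 2 rose in Type V). Of 11 antagonists and processing enzymes tested, Cish, a feedback inhibitor of cytokine signalling, rose in Type D (1.97; adjusted p = 0.0118) and 0 were called in Type V. With the block Il1rn, the IL-1 receptor antagonist, fell in Type V (-1.70; adjusted p = 0.00329). Of 35 tested regulators of NF-kB, C/EBP and STAT signalling 1 was called in each type, the kinase gene Ikbke (1.79 and 1.92; adjusted p = 0.0346 and 0.0278). With the block Ikbkg, the regulatory subunit of the IkB kinase, rose in both types too (1.02 and 1.01; adjusted p = 0.000212 and 0.000273) and Cebpd fell in Type D (-1.11; adjusted p = 0.000995). Of 46 tested senescence-associated factors outside the set, most of them secreted, 7 rose and 0 fell in Type D, led by the protease gene Mmp10 (4.85; adjusted p = 0.00101), the cytokine gene Gdf15 (3.92; adjusted p = 0.00281) and Fas (3.54; adjusted p = 0.0221), and 2 rose and 1 fell in Type V, with Gdf15 at 2.82 and Hmgb1 at -1.17. Hmgb1 was lower in Type D too, just under the fold limit (-0.998, limma adjusted p = 0.000939). With the block 18 of these factors rose and 0 fell in Type D, and 9 rose and 1 fell in Type V. The list also held Pigf, in the mouse a gene of GPI anchor synthesis. It was left out of these counts after its values were seen; it rose by 1.22 in Type D and by 1.20 in Type V lines (log2). The 46 factors had a median change of 0.60 in Type D and 0.28 in Type V, against 0.08 and 0.05 over all tested genes.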

How the data were processed

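TPM values of 25239 genes in 24 mRNA libraries were taken as the authors deposited them. Libraries were stranded and read single-end. Either kallisto or HISAT2 made the alignments, and the genome is written both as mm10 and as GRCm39, so tool and build behind the values remain uncertain. TPM sums to 1000000 in each library and holds no counts, so depth is unknown.

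Genes with at least 1 TPM in 3 or more libraries (14104) were tested as log2(TPM + 1) with limma 3.58.1 in R 4.3.3 (1 coefficient for each of the 8 groups, a mean trend in the variance, Benjamini-Hochberg adjustment over all tested genes), and called at an adjusted p under 0.05 with a change of at least 1. Libraries pair by cell line, from the labels: the correlation of deviations from group means was 0.599 to 0.929 over the 36 same-line pairs and at most 0.0438 over the 72 pairs of different lines. A fit with the line as a block is therefore given where it changes a call. Comparisons of the types hold 1 library per line and cannot take it. Their spread comes from all 24 libraries, where each line counts 4 times as if independent, so their p-values may be too small. The fit was checked on simulated data. The genes followed, the lists and their roles were chosen with earlier results of these data known. Genes were named when called in a comparison or when their mean reached 1 TPM in a group. Ccl28, with a highest group mean of 1.02 TPM, did not pass the filter, and a few lower genes such as Ccl6 were named too. From each list of other genes at most the 3 largest rises and falls on restoration were named, besides the chemokine receptors tested. Start-site windows came from RefSeq on GRCm38.p6. One marker used in the check of the cancer type is not reported here.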

Additional observations from a re-analysis of the deposited data

Results flagged for a closer look

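Some genes changed differently on restoration in the 2 types. Csf1 was lower in 3 of 3 Type D lines (-0.54, log2) and higher in 3 of 3 Type V lines (0.31), a difference of -0.85 (limma adjusted p = 1 without and 0.0299 with the cell line block). Under CsA the corresponding changes were -0.53 and 0.25, a difference of -0.78 that was not tested. Il34 was higher in 3 of 3 Type D lines (1.63) and lower in 3 of 3 Type V lines (-0.27), a difference of 1.91 (adjusted p = 1 without and 0.00413 with the block). Under CsA it was 1.64 and -0.82, a difference of 2.46 that was not tested. Cxcl10 was higher in 3 of 3 Type D lines (0.29) and lower in 3 of 3 Type V lines (-2.43), a difference of 2.72 (adjusted p = 1 without and 0.0256 with the block). Under CsA its mean change was -0.57 in Type D and -1.65 in Type V, so the directions were no longer opposite.

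Another 4 genes differed between the types by the test with the block alone. Of them, Cxcl3 was too low in Type V Control to fall as far as it did in Type D. The differences were 3.75 for Csf2 (3.86 in Type D and 0.11 in Type V; adjusted p = 0.926 without and 0.0101 with the block), -2.22 for Ccl20 (-3.10 and -0.88; line-blocked adjusted p = 0.00684), -2.31 for Cxcl3 (-2.68 and -0.37; 0.00193) and -1.89 for Ccl17 (-2.55 and -0.66; 0.0205).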

How the results depend on the processing

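Depth is unknown, and with 3 lines a group the unpaired fit carries the spread between tumors. With the cell line as a replicate block the count of genes called went from 2 to 15 for restoration in Type D, from 2 to 5 in Type V, from 1 to 16 and from 1 to 10 for restoration under CsA, and from 0 to 6 for the difference between types. A pseudocount of 0.1 gave 1 for restoration in Type D and 1 in Type V, and no filter gave 1 in Type V. Fitting only the compared groups gave 7 for restoration in Type D, 1 in Type V, 5 under CsA in Type D, and 3 between the types in Restored. The share of all tested genes called was computed for the main fit and the block only. Whether the other counts of this section moved more than all genes did was not tested. Leaving out 1 line gave 1 to 5 for restoration in Type D, 0 to 2 in Type V, 0 to 5 and 0 to 1 under CsA, 2 to 7 between the types in Control, 2 to 7 in Restored and 3 to 7 in Restored + CsA; an arm left with 2 lines borrows its spread from the other groups. Median-ratio scaling, quantile normalization and a minimum of 5 TPM kept each of the counts for all comparisons within 1.5 times. Over single genes, the alternatives covered 64 results called in the main unpaired fit or with the block, most of them not in the main fit. Of 816 alternatives, 709 kept the side of the threshold of the main fit, 41 lost a call, 66 gained 1 and 0 changed direction. Keeping the side thus often meant staying uncalled, as for Cxcl3 and Il33 on restoration in Type D, which the block alone called.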
